A study of Mus musculus with 18 samples.

Results

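Mouse embryoid bodies labelled as Mettl14 conditional knockout and given 5 µM GSK343 were compared with embryoid bodies labelled as Mettl14 control. The comparison takes 3 libraries a group, 6 of the 18 RNA libraries in the series, assigned to their groups by their labels. It gives the joint change of knockout and drug, and every gene of the count tables entered it. All groups came from C57BL/6 embryonic stem cells grown with LIF and the inhibitors CHIR99021 and PD0325901, then moved to suspension culture without these factors until day 7. The control group is labelled Mettl14 control with no drug, and the labels do not state whether it was given the solvent DMSO. The knockout group without GSK343, with 3 libraries, carries the conditional Mettl14 knockout and was given DMSO; it is called untreated here. The GSK343 group carries the same knockout and was given GSK343. The sources used here do not give the allele, how it was recombined, the number of clones or the length of drug exposure. Controls given GSK343 were not analysed here, so in the joint contrast the effects of genotype and drug cannot be told apart. For the genes described most closely, the untreated knockout libraries are shown between the groups. The labels do not say that replicates were separate cultures, so p-values measure only the spread between these libraries, which may be technical. The other 9 libraries belong to a Mettl3 line and enter only an alternative fit.

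METTL14 is the partner of METTL3 in the nuclear complex that writes N6-methyladenosine (m6A) on RNA. EZH2 is the catalytic subunit of Polycomb repressive complex 2 (PRC2), which methylates lysine 27 of histone H3, a mark of silenced developmental genes. GSK343 competes with the methyl donor S-adenosylmethionine at EZH2. The groups of genes that dominated this contrast belong to sterol and fatty acid supply. Cells sense membrane cholesterol through SCAP and the INSIG proteins. When sterol in the endoplasmic reticulum is low, SCAP carries the SREBP transcription factors to the Golgi, where proteases release their active part. Active SREBP then raises the enzymes of the mevalonate pathway, those that turn squalene into cholesterol, sterol uptake and fatty acid synthesis. Liver X receptors (LXR) respond to oxysterols, which accumulate when sterol is plentiful, and raise the sterol exporters ABCA1 and ABCG1.

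Total counts were 8288902 to 10285737 in the controls, 1303697 to 8688596 in the untreated knockout libraries and 721853 to 20714764 in the GSK343 libraries. GSK343 replicate 3 was the shallowest of the 9 libraries of the line, with 12178 genes detected against 16658 and 16802 in the other GSK343 libraries. A count of 3 in a library equals 0.292 to 0.362 CPM (counts scaled to a common library total) in the controls and 0.145, 0.266 and 4.16 CPM in GSK343 replicates 1, 2 and 3. These floors cover counting error only. Mitochondrial genes took 3.06% to 3.70% of counts in the controls and 4.01% to 4.87% in the GSK343 libraries. Genes that overlap annotated ribosomal RNA took 0.233% to 0.612% and 0.374% to 1.34%, and their part in the results was not tested. Untreated knockout replicate 3 stood apart from the other 8 libraries of the line. In it such genes took 7.57%, protein-coding genes 84.28% against 93.7% to 96.08%, and the nuclear RNA Malat1 3.52% against 0.93% to 1.94%. Markers of fibroblasts and mesenchyme (Col1a1, Vim, Fn1 and others, 14 genes) summed to 20930 to 26450 CPM in the controls and 16790 to 17900 CPM in the GSK343 libraries, with no overlap, and 15660 to 22050 CPM in the untreated knockout. These sums are shares of the library total. The 14 markers of pluripotent cells summed to 6.88 to 10.9 CPM and 7.44 to 19.4 CPM, with Dppa3, Lin28a, Fgf4 and Dppa4 at 0 in all 6 libraries. The 8 markers of early mesoderm reached at most 2.89 CPM in a control and 8.31 CPM in a GSK343 library, with T, Mixl1 and Msgn1 at 0. Markers of endoderm summed to 266.8 to 340.4 and 175.9 to 281.5 CPM, and nearly all of this was Dab2, which other lineages express too, at 313, 332 and 259.9 CPM in the controls. Defining markers of pluripotent cells and early mesoderm were thus at or near 0 in libraries labelled as embryoid bodies, while those of mesenchyme were present in every library. In bulk libraries, fewer cells of a type and less RNA per cell cannot be told apart.

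Mettl14, which lies at chr3:123368297-123386108 (mm10), was measured at 16.4, 17.8 and 16.5 CPM in the controls, 16.3, 22.9 and 19.3 CPM in the untreated knockout libraries and 11.7, 16.7 and 12.5 CPM in the GSK343 libraries, replicates in order. CPM of single genes here and below are scaled by the trimmed mean of M-values (TMM). Summed CPM of gene lists are scaled by the library total alone. The log2 change from control to knockout with GSK343 was -0.29 ± 0.37 (SE), and the adjusted p was 0.9999 (edgeR quasi-likelihood test with Benjamini-Hochberg adjustment, as for every later adjusted p unless another tool is named). Gene positions are spans of the annotation on mm10. The groups overlapped, and the untreated libraries labelled knockout were not lower than the controls. A count over the whole gene does not see a deleted exon where the remaining transcript is stable, so these counts neither back nor contradict the knockout label, and "knockout" below means the label. Mettl3, the catalytic partner, stood at 17.5, 19.6 and 20.5 CPM in the controls and 16.5, 30.1 and 15.3 CPM in the GSK343 libraries, a log2 change of 0.15 ± 0.36 (SE). Ezh2, the target of the drug, stood at 15.98, 10.2 and 10.8 against 6.75, 15.4 and 6.96 CPM, a log2 change of -0.29 ± 0.49 (SE). Its paralogue Ezh1 stood at 26.97, 37.6 and 22.9 against 42.3, 17.8 and 20.9 CPM, so neither catalytic subunit separated the groups at the RNA level. The mark that Ezh2 writes was not measured in these files.

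Of 13882 genes tested, 21 rose (0.151%) and 2 fell (0.0144%) at an adjusted p under 0.05, which is 0.166% called in either direction. At an unadjusted p under 0.05 there were 293 higher (2.11%) and 309 lower (2.23%) genes. The 3 GSK343 libraries all lay above the 3 controls for 646 genes (4.65%) and all below them for 932 genes (6.71%). The calls were concentrated in a few pathways: 15 of the 21 genes that rose encode enzymes of cholesterol synthesis, and the other 6 included Insig1, Elovl6, Scd1, Crabp1 and Cryab. The genes that fell were Abcg1 and Ednra. The number of calls depended on single libraries. It was 4 without control replicate 2 and 4 without GSK343 replicate 1, 7 without control replicate 1, 9 without GSK343 replicate 2 and 13 without control replicate 3, against 45 without untreated knockout replicate 1. DESeq2 called 45 genes higher and 24 lower, among them all 23 genes called by edgeR. Without the 2 shallowest libraries, untreated knockout replicate 3 and GSK343 replicate 3, the counts were 30 higher and 7 lower. Thinning all libraries to 721853 counts left 16 calls, all higher, and fitting all 18 libraries of the series together left 2. The plot of all tested genes shows the called genes at middle and high abundance, where the spread of log2 changes is narrow.

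**Figure D1:**
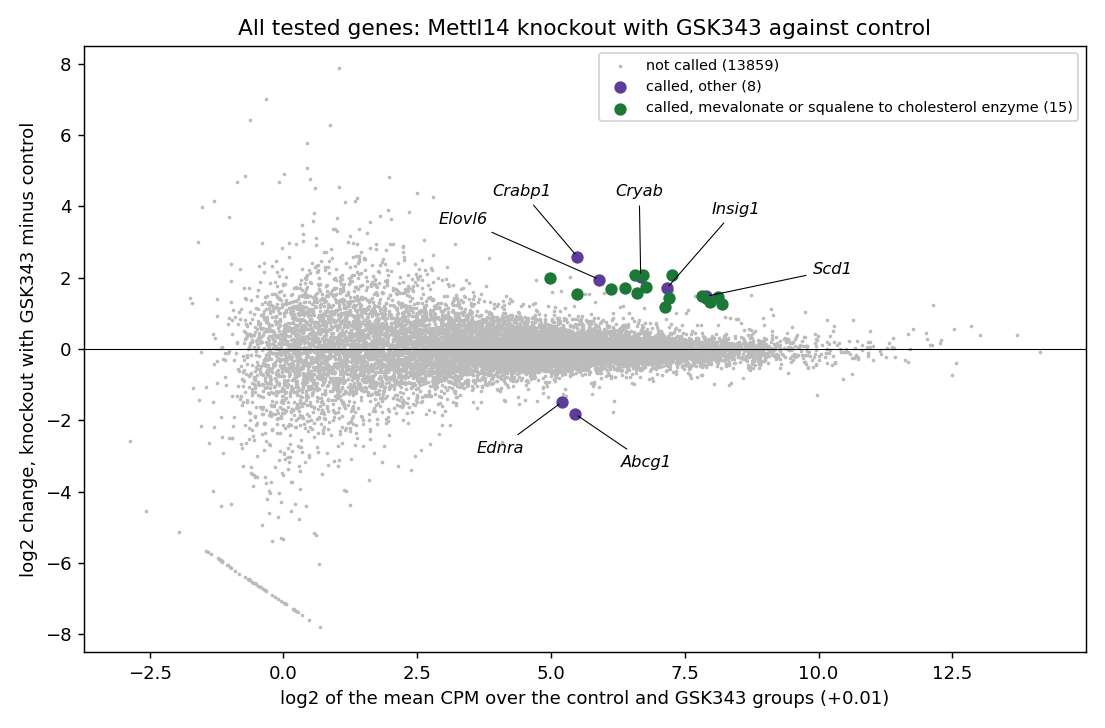
Log2 change from control to knockout with GSK343 against the log2 mean CPM of both groups, 1 point a gene, for the 13882 genes tested. Green points are called enzymes of cholesterol synthesis (15), purple points the other called genes (8) and grey points genes not called. Crabp1, at a log2 change of 2.59, is the highest of the 21 genes that rose; the diagonal line of points at the lower left holds genes with no count in the GSK343 libraries, whose fitted change is not a measure of size.

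The mevalonate pathway turns acetyl-CoA into the isoprenoid units from which squalene, dolichol and prenyl groups are made. Of its 9 listed enzymes, all tested, 4 rose and none fell (0.151% and 0.0144% of all genes). Their median log2 change was 1.31, against -0.01 over all genes tested. Of 9, 6 had every GSK343 library above every control (4.65% of all genes). Acat2 (chr17:12942890-12960747), which joins acetyl-CoA units at the entry of the pathway, was at 28.2, 30.3 and 41.1 CPM in the controls, 55.1, 64.5 and 41.98 CPM in the untreated knockout libraries and 116, 110.5 and 90.4 CPM in the GSK343 libraries. The lowest GSK343 library was above the highest control, and the change was 3.199-fold (log2 1.68 ± 0.27, SE; adjusted p = 0.00728). Hmgcs1 (chr13:119690379-119708260), which makes HMG-CoA, went from 133, 126 and 102 CPM to 377, 381 and 244 CPM, with the untreated knockout libraries at 184, 209 and 119 CPM. GSK343 replicate 3 was the lowest of the treated libraries but stayed above all controls, and the log2 change was 1.48 ± 0.25 (SE; adjusted p = 0.0116). Idi1 (chr13:8885501-8892451), the isopentenyl diphosphate isomerase, went from 53.6, 37.1 and 21.02 CPM to 188, 194 and 76.5 CPM, a 4.21-fold rise (log2 2.07 ± 0.38, SE; adjusted p = 0.0224). Replicate 3 was lowest in each of its groups, including the untreated knockout (72.2, 109 and 43.7 CPM).

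Several enzymes of the pathway did not pass the test. Mvd, the diphosphomevalonate decarboxylase, stood at 16.2, 17.8 and 20.5 CPM in the controls and 80.3, 52.6 and 30.6 CPM in the GSK343 libraries, with no overlap and an adjusted p of 0.0784. Mvk, the mevalonate kinase, stood at 18.8, 22.5 and 28.7 against 50.2, 35.4 and 75.1 CPM, a log2 difference of 1.15 ± 0.34 (SE; adjusted p = 0.441), also without overlap. Pmvk, the next kinase, had 8.798, 13.6 and 20.2 against 13.6, 35.6 and 64.01 CPM, where GSK343 replicate 1 lay among the controls. Fdps, which makes farnesyl diphosphate, stood at 0.695, 2.62 and 1.902 against 4.14, 4.68 and 1.39 CPM. Reads shared with near-identical copies may have been discarded or split by the counting, so its level is uncertain. Ggps1, which makes geranylgeranyl diphosphate for protein prenylation rather than sterols, stood at 50.4, 36.03 and 36.6 against 21.1, 36.7 and 51.5 CPM, a log2 difference of -0.24 ± 0.35 (SE), and was the only mevalonate enzyme with a negative value. The calls of Acat2, Idi1 and Hmgcs1 were each lost on leaving out some libraries. Acat2 and Idi1 were called in 5 and 5 of 9 refits that each left out 1 library, with adjusted p up to 0.115 and 0.163. Hmgcs1 was called in 4 of 9, with adjusted p up to 0.118. Leaving out control replicate 2, GSK343 replicate 1 or GSK343 replicate 2 ended all 3 calls. Leaving out control replicate 1 ended those of Acat2 and Hmgcs1, and leaving out control replicate 3 those of Idi1 and Hmgcs1.

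Squalene is made by squalene synthase, closed into lanosterol and trimmed to cholesterol in the endoplasmic reticulum. Of the 13 listed enzymes of this branch, 11 rose and none fell (0.151% and 0.0144% of all genes). Their median log2 change was 1.55, and all 13 values were positive. In 11 of 13, every GSK343 library lay above every control (4.65% of all genes). Fdft1 (chr14:63145150-63179578), squalene synthase, was at 166, 172 and 178 CPM in the controls, 278, 257 and 248 CPM in the untreated knockout libraries and 440.1, 431 and 376 CPM in the GSK343 libraries. These 3 groups stood in steps with no overlap between any of them, and the change to knockout with GSK343 was 1.27 ± 0.21 on the log2 scale (SE; adjusted p = 0.00839). Sqle (chr15:59315077-59331192), squalene epoxidase and a second control point of the pathway, went from 82.9, 87.8 and 69.2 CPM to 215, 188 and 244 CPM (log2 change 1.42 ± 0.23, SE; adjusted p = 0.00728). Lss (chr10:76531588-76557138), which closes the sterol ring system to lanosterol, went from 42.4, 45.5 and 32.5 CPM to 184, 118 and 209 CPM, a 4.200-fold rise (log2 2.07 ± 0.30, SE; adjusted p = 0.00313). Its untreated knockout libraries, at 34.5, 68.5 and 46.2 CPM, overlapped the controls at replicate 1. Sc5d (chr9:42251595-42264256), the lathosterol oxidase late in the pathway, was at 57.1, 49.00 and 45.4 CPM in the controls, 90.7, 70.4 and 77.3 CPM in the untreated knockout libraries and 198, 176 and 129 CPM with GSK343. Its 3 groups did not overlap, and the joint log2 change was 1.74 ± 0.24 (SE; adjusted p = 0.0029).

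The demethylation steps were also higher. Cyp51 (chr5:4081145-4104746), the lanosterol 14-demethylase, went from 151, 147 and 134 CPM in the controls to 354, 435 and 277 CPM with GSK343 (log2 change 1.31 ± 0.23, SE; adjusted p = 0.013). Msmo1 (chr8:64718139-64733792), the C4 methylsterol oxidase, went from 137, 149 and 165 to 419, 437 and 370.1 CPM (adjusted p = 0.00929). Nsdhl (chrX:72918557-72958514), which takes part in removing the C4 methyl groups, went from 36.1, 33.5 and 47.3 to 148, 117 and 117 CPM (adjusted p = 0.0114). Hsd17b7 (chr1:169949535-169969241), the ketosteroid reductase of the same step, went from 55.7, 53.04 and 39.8 to 153, 147 and 139 CPM (adjusted p = 0.00728). No GSK343 library of these 4 enzymes fell to the level of a control. Tm7sf2 (chr19:6062821-6068373), a sterol C14 reductase, rose from 8.104, 10.7 and 17.4 to 36.5, 39.03 and 76.5 CPM (adjusted p = 0.042). Lbr, the lamin B receptor that carries the same reductase activity, stood at 9.49, 10.2 and 8.56 against 32.1, 21.8 and 9.74 CPM and did not pass (adjusted p = 0.724). Dhcr7 (chr7:143823145-143848410), which makes the last step of the Kandutsch-Russell route, rose from 23.8, 23.5 and 19.98 to 62.1, 60.02 and 77.9 CPM (adjusted p = 0.0249). Ebp, the sterol isomerase, stood at 20.6, 24.5 and 29.3 against 51.2, 28.9 and 36.2 CPM and did not pass (log2 difference 0.65 ± 0.33, SE). Lss and Sc5d were called in 9 of 9 refits without 1 library each, with adjusted p up to 0.042 and 0.0455. The calls of Fdft1, Sqle, Hsd17b7, Nsdhl and Msmo1 held in 5 of 9, of Cyp51 in 4 and of Tm7sf2 and Dhcr7 in 3. Leaving out control replicate 2 or GSK343 replicate 1 ended each of these 8 calls. Leaving out control replicate 1 ended all but that of Hsd17b7, and leaving out GSK343 replicate 2 all but that of Sqle. Control replicate 3 decided those of Sqle, Hsd17b7, Cyp51 and Dhcr7, untreated knockout replicate 2 those of Tm7sf2 and Dhcr7, and GSK343 replicate 3 that of Tm7sf2. The highest adjusted p over these refits was 0.336, for Tm7sf2, which was also not called without the 2 shallowest libraries.

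**Figure D2:**
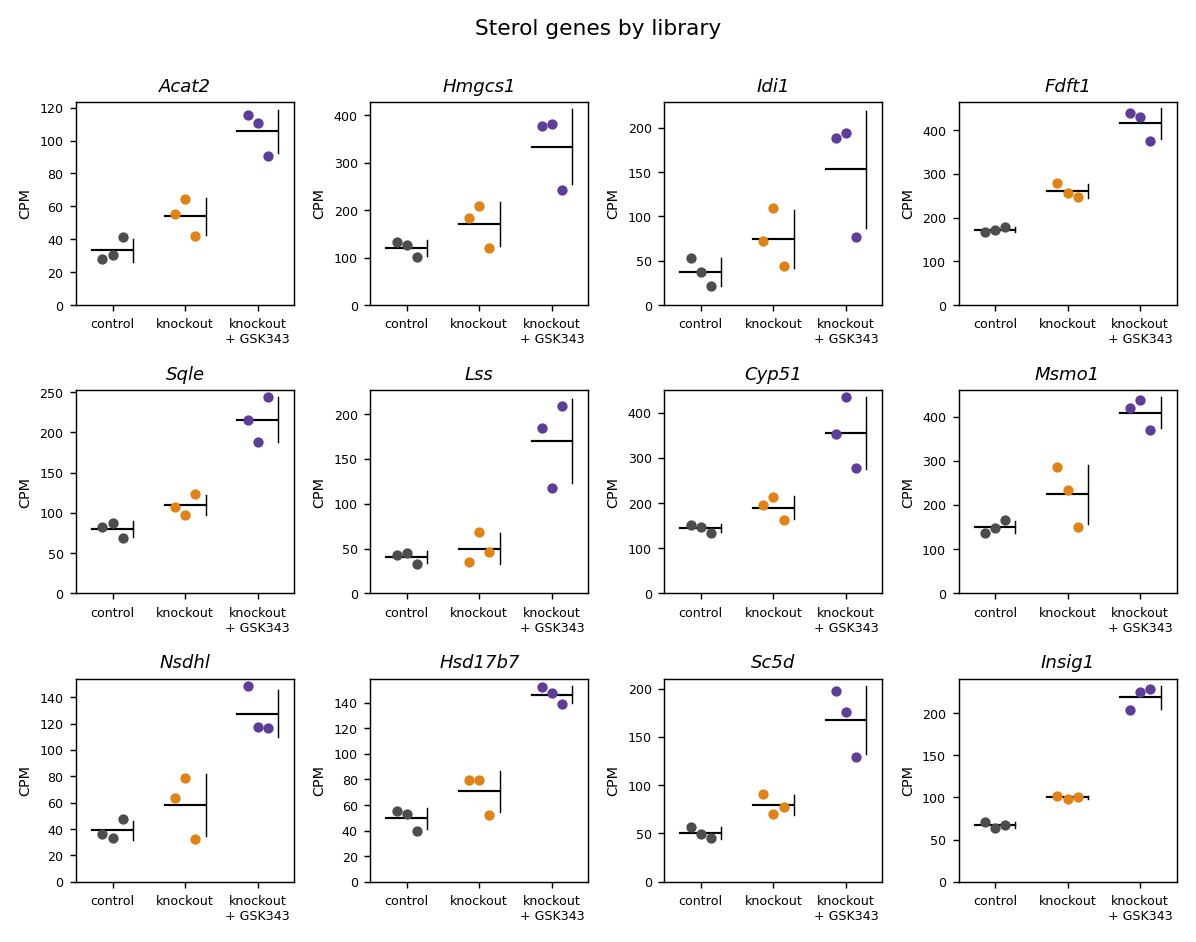
CPM (TMM-scaled) in each library for 12 sterol genes, in control, untreated knockout and knockout with GSK343 groups. Points are the 3 libraries in replicate order from left to right, horizontal lines group means and vertical lines ± 1 SD. In all 12 panels every GSK343 library lies above every control; Insig1 is at 70.8, 64.1 and 66.9 CPM in the controls and 203, 225 and 228 CPM with GSK343.

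The steps behind the joint change can be read from the same fit, which shares the untreated knockout libraries between both steps. The untreated knockout was given DMSO, and the labels do not state this for the control. In the knockout step, here and below, genotype and solvent therefore cannot be told apart. Over the 22 enzymes of both branches, the median log2 change was 0.54 from control to untreated knockout and 0.97 from untreated knockout to knockout with GSK343, against 0.01 and -0.03 over all genes tested. Without untreated knockout replicate 3 these medians were 0.52 and 0.85, against -0.01 and -0.01 over all genes. The joint median was 1.47, with 21 of 22 values positive. In 17 of 22, every GSK343 library lay above every control (4.65% of all genes). For Lss the steps were 0.32 and 1.75, for Idi1 1.04 and 1.03, and for Fdft1 0.60 and 0.67. For Lss the fitted drug step was the larger one, while for Idi1 and Fdft1 the steps were of like size. The difference between the steps was not tested. The sum of the 13 enzymes from squalene to cholesterol was 858.6 to 890.5 CPM in the controls, 981.1 to 1289 CPM in the untreated knockout libraries and 2276 to 2692 CPM with GSK343. That of the 9 mevalonate enzymes was 353.5 to 410.4, 399.6 to 612 and 786.9 to 1122 CPM. The summed marker level of fibroblasts and mesenchyme moved the other way in the GSK343 libraries, and its part in these changes was not tested. The enzyme median stayed between 1.42 and 1.58 under every alternative fit.

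SREBP proteins bind sterol regulatory elements, usually beside a CCAAT box bound by NF-Y, so the promoters of these enzymes were read for both motifs. RefSeq promoters (build GRCm38.p6, equal in coordinates to mm10, 250 bases before to 50 bases after the start) were on hand for 17 of the 22 enzymes. The box CCAAT, on either strand, lay in 16 of 17 (94.1%), against 42.8% of the 10007 tested genes with a promoter. It lay in 10 of 11 called enzymes and in 6 of 6 enzymes that were not called. The sterol element TCACNCCAC, on either strand, lay in 1 of 17 (5.9%), against 1.4% of tested genes. The CCAAT and sterol element matches shown do not overlap each other. A match of letters is a description, and the absence of a match says only that those letters are not in this window. The sequences shown are the 250 bases before the start, 5′ to 3′ on the gene's strand, with CCAAT (or its reverse complement ATTGG) and the sterol element in capitals. Hmgcs1 at chr13:119690101-119690350 (plus strand) is shown as the only enzyme with the sterol element. Lss at chr10:76531355-76531604 (plus strand) and Idi1 at chr13:8885356-8885605 (plus strand) are shown as the enzymes with the highest fold changes among those named. Mvk at chr5:114444019-114444268 (plus strand) holds 5 CCAAT boxes, the most among the listed enzymes, and its change did not pass the test. Acat2 at chr17:12960726-12960975 (minus strand) rose with no CCAAT box in the window. Insig1 at chr5:28071162-28071411 (plus strand), the feedback regulator described next, is shown for comparison.
Hmgcs1: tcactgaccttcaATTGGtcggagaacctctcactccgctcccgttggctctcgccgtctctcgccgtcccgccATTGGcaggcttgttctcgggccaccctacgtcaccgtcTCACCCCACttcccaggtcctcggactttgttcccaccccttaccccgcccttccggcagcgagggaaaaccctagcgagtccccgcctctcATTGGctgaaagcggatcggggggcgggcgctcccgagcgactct
Lss: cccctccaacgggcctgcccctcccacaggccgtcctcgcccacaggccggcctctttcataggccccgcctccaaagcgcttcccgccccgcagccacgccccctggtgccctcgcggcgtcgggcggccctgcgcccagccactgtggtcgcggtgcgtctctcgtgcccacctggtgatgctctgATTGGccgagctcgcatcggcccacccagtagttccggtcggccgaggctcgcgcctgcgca
Idi1: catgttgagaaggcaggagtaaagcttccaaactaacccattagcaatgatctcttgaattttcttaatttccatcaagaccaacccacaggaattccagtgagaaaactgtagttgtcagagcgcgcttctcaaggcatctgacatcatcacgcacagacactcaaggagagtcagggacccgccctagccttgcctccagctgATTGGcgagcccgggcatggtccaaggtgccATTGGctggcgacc
Mvk: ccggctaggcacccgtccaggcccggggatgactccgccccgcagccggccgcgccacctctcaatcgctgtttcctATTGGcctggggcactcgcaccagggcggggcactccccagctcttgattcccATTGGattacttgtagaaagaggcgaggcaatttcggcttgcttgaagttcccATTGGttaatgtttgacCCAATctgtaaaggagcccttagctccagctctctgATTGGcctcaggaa
Acat2: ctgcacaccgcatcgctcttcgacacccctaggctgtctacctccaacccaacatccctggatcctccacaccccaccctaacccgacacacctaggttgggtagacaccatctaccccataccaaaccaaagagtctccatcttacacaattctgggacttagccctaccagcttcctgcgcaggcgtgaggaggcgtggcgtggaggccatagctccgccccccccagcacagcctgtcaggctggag
Insig1: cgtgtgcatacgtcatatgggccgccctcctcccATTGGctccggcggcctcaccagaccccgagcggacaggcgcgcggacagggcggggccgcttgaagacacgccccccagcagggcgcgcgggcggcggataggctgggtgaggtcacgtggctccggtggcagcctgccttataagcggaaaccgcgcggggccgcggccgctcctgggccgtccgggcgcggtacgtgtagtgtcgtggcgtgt
The sterol element of Hmgcs1 begins 137 bases before the start, and its CCAAT boxes in these 250 bases begin 237, 176 and 45 bases before it. The CCAAT boxes of Idi1 begin 45 and 14 bases, and that of Lss 62 bases, before the start.

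Among the genes that sense sterol and process SREBP, only Insig1 passed. Insig1 (chr5:28071363-28078662), which holds SCAP in the endoplasmic reticulum and is itself an SREBP target, was at 70.8, 64.1 and 66.9 CPM in the controls, 101, 97.99 and 101 CPM in the untreated knockout libraries and 203, 225 and 228 CPM with GSK343. The 3 groups were tight and separate, and the 3.25-fold rise (log2 1.699 ± 0.22, SE; adjusted p = 0.00112) was called in 9 of 9 refits without 1 library each. Of the 9 genes of this list, 1 rose and none fell (0.151% and 0.0144% of all genes), and the median log2 change was -0.04. Insig2, the second INSIG gene, stood at 40.98, 23.2 and 23.97 against 34.5, 17.8 and 30.6 CPM. Srebf2, which encodes the SREBP of sterol synthesis, stood at 114, 149 and 126 against 203, 204 and 177 CPM, with no overlap but an adjusted p of 0.991. Srebf1, which encodes the SREBP of fatty acid synthesis, stood at 62.7, 98.4 and 99.2 against 89.3, 55.1 and 107 CPM, and Scap at 81.96, 105 and 81.6 against 104, 66.5 and 90.4 CPM, both overlapping. Mbtps1, the first of the cleaving proteases, had a log2 difference of -0.25 ± 0.23 (SE). None of these but Insig1 passed the test. SREBP cleavage and sterol content were not measured.

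In sterol uptake and transport, 1 of 14 tested genes rose and none fell (0.151% and 0.0144% of all genes), and DESeq2 and voom each called 2 higher. The median log2 change was 0.22, and 5 of 14 lay above all controls (4.65% of all genes). The genes described here did not pass the edgeR test. Stard4, a sterol carrier inside the cell, stood at 38.8, 31.04 and 28.4 against 98.9, 83.00 and 59.8 CPM, just outside the threshold (adjusted p = 0.0718). Lrp8, a lipoprotein receptor that also binds reelin, stood at 53.3, 47.9 and 41.2 against 92.8, 89.9 and 103 CPM (adjusted p = 0.274). Vldlr, a lipoprotein receptor of muscle, fat and brain, stood at 29.98, 28.5 and 21.97 against 50.2, 42.5 and 68.2 CPM (adjusted p = 0.543). In all 3 the GSK343 libraries lay above all controls without passing the test.

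Abcg1, which moves sterol to high-density lipoprotein, lies at chr17:31057675-31117988 and fell from 71.4, 64.8 and 62.4 CPM in the controls to 14.3, 15.7 and 33.4 CPM with GSK343. Its untreated knockout libraries stood between, at 39.2, 29.6 and 51.2 CPM, and overlapped neither the controls nor GSK343 replicates 1 and 2. The fall was 3.52-fold (log2 change -1.82 ± 0.34, SE; adjusted p = 0.026). Abca1, the exporter to lipid-poor apolipoprotein A1, stood at 126, 129 and 56.4 against 22.1, 40.5 and 59.8 CPM, a log2 difference of -1.44 ± 0.37 (SE), but control replicate 3 lay among the GSK343 libraries and the adjusted p was 0.233. Mylip, an LXR target that encodes a ubiquitin ligase, stood at 91.6, 70.6 and 62.5 against 59.4, 42.5 and 34.8 CPM, below all controls (adjusted p = 0.942). Of 11 tested genes of this list 1 fell and none rose (0.0144% and 0.151% of all genes), and the median log2 change was -0.03. The receptors themselves, Nr1h2 and Nr1h3, had log2 differences of 0.32 ± 0.27 and 0.90 ± 0.64 (SE), and Apoe had -0.30 ± 0.22. The call of Abcg1 held in 4 of 9 refits and was lost without any 1 of the 3 controls or GSK343 replicate 1 or 2, with adjusted p up to 0.282. Voom with quality weights called 2 genes of the list lower.

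Fatty acid synthesis rose in part. Of 20 tested genes of synthesis and desaturation 2 rose and none fell (0.151% and 0.0144% of all genes), and the median log2 change was 0.72. In 13 of 20 all GSK343 libraries lay above all controls and in 1 below (4.65% and 6.71% of all genes). DESeq2 and voom each called 7 of them higher. Elovl6, which elongates palmitate, lies at chr3:129532355-129638495 and went from 23.2, 23.3 and 27.1 CPM in the controls to 109.5, 74.6 and 102 CPM with GSK343, with 48.5, 33.04 and 31.9 CPM in the untreated knockout libraries. The 3 groups did not overlap, and the rise was 3.87-fold (log2 1.95 ± 0.28, SE; adjusted p = 0.00315). Scd1 (chr19:44394455-44407879), the stearoyl-CoA desaturase, went from 156, 129.9 and 95.3 CPM to 468, 359 and 227 CPM (log2 1.48 ± 0.28, SE; adjusted p = 0.0249), while its untreated knockout values of 125, 194 and 144 CPM overlapped the controls. The Elovl6 call was lost without control replicate 2 or GSK343 replicate 1 (adjusted p up to 0.0577), and that of Scd1 without any 1 of the 3 controls or GSK343 replicate 1 or 2 (adjusted p up to 0.28). Acss2, which makes acetyl-CoA from acetate, stood at 6.25, 14.3 and 11.98 against 43.5, 38.6 and 43.1 CPM and missed the threshold narrowly (adjusted p = 0.0551). Fads1, a desaturase of polyunsaturated fatty acids, stood at 112, 143 and 107 against 319, 250.3 and 200.4 CPM (adjusted p = 0.0762), and its neighbour Fads2 at 43.9, 53.4 and 53.1 against 126, 143 and 69.6 CPM (adjusted p = 0.113). Fasn, fatty acid synthase, stood at 316, 417 and 303 against 895, 611 and 756 CPM, a log2 difference of 1.13 ± 0.26 (SE; adjusted p = 0.132). For Fads2 the knockout and drug steps were 0.02 and 1.18, for Fasn 0.41 and 0.71, and over the list their medians were 0.13 and 0.67 (0.15 and 0.66 without untreated knockout replicate 3). The list median thus lay near that of all genes in the knockout step and above it in the drug step, a difference that was not tested.

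Genes of fatty acid oxidation showed no call in edgeR or DESeq2 and 1 lower call in voom among 18 tested. Their median log2 change was -0.30, with 2 lower and none higher at an unadjusted p under 0.05 (2.23% and 2.11% of all genes). Angptl4, a PPAR target that blocks lipoprotein lipase, stood at 72.4, 73.97 and 62.4 CPM in the controls and 34.9, 32.2 and 44.5 CPM with GSK343, below all controls (adjusted p = 0.366). Acadvl, which starts the oxidation of very long chains, stood at 119, 114 and 127 against 104, 73.3 and 66.8 CPM. Cpt1a, the carnitine transferase that admits fatty acids to mitochondria, overlapped between groups at 134, 145 and 95.2 against 97.00, 85.3 and 62.6 CPM.

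**Figure D3:**
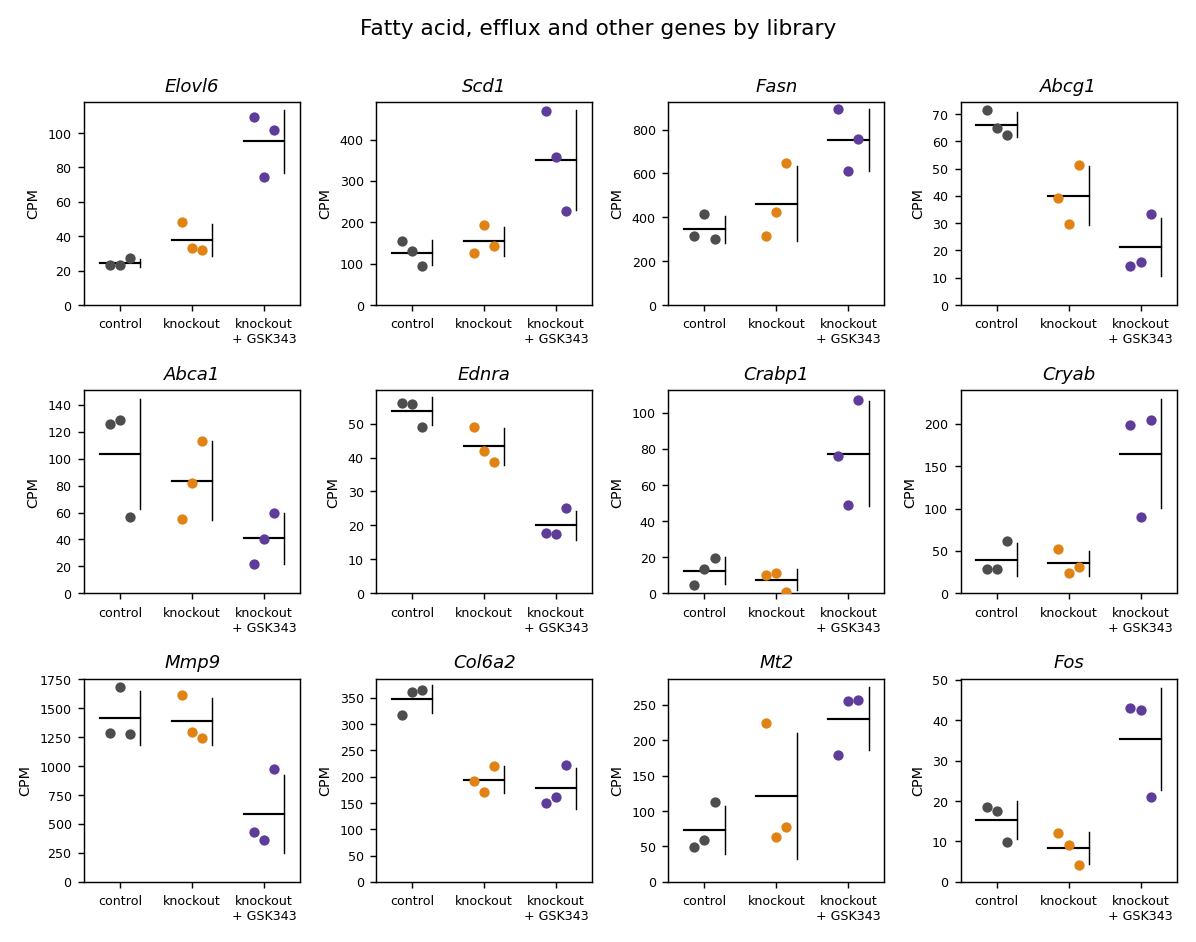
CPM (TMM-scaled) in each library for genes of fatty acid synthesis (Elovl6, Scd1, Fasn), sterol export (Abcg1, Abca1) and other functions, in the 3 groups of the Mettl14 line. Points are libraries in replicate order, horizontal lines means and vertical lines ± 1 SD. Abcg1 and Ednra fell and Elovl6, Scd1, Crabp1 and Cryab rose; the others did not pass the test, and Col6a2 is about as low in the untreated knockout (192, 171 and 221 CPM) as with GSK343 (150.3, 162 and 223 CPM).

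The remaining 3 called genes lie outside lipid supply. Crabp1, a carrier of retinoic acid in the cytosol, lies at chr9:54764748-54773110 and had the largest fold rise among the called genes. It was at 4.63, 13.3 and 19.6 CPM in the controls, 10.4, 11.4 and 0.84 CPM in the untreated knockout libraries and 76.3, 49.00 and 107 CPM with GSK343. The GSK343 libraries were all higher than the other 6, and the joint change was 6.02-fold (log2 2.59 ± 0.51, SE; adjusted p = 0.0375), with steps of -0.52 and 3.11. Among 14 tested genes of retinoid binding and metabolism 1 rose and none fell (0.151% and 0.0144% of all genes), with a median of -0.25. Crabp2, the second carrier, stood at 31.7, 47.5 and 46.4 against 35.96, 68.3 and 52.9 CPM, and the receptors Rara and Rxra had log2 differences of -0.48 ± 0.30 and -0.38 ± 0.24 (SE), both below all controls.

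Cryab (chr9:50751325-50756636), alpha-B-crystallin, a small heat shock protein of muscle, lens and stressed cells, was at 28.8, 28.8 and 62.02 CPM in the controls, 52.2, 23.5 and 31.1 CPM in the untreated knockout libraries and 199, 90.4 and 205 CPM with GSK343. GSK343 replicate 2 was less than the other 2 treated libraries but above all 6 libraries without drug. The rise was 4.08-fold (log2 2.03 ± 0.37, SE; adjusted p = 0.0224), with steps of -0.15 and 2.18. Of 20 tested heat shock genes 1 rose and none fell (0.151% and 0.0144% of all genes), and their median was 0.00. The inducible HSP70 gene Hspa1a stood at 13.2, 3.69 and 6.28 against 29.8, 13.7 and 13.9 CPM and its near-identical copy Hspa1b at 28.1, 12.8 and 13.5 against 62.4, 32.6 and 11.1 CPM. Neither passed the threshold, and both levels are uncertain because the counting may have split or dropped their shared reads. Dnajb1, a co-chaperone, stood at 56.96, 68.03 and 49.7 against 76.5, 83.00 and 77.9 CPM. Ednra, the endothelin A receptor of mesenchyme and smooth muscle at chr8:77663031-77724464, fell from 56.1, 55.8 and 48.99 CPM to 17.6, 17.5 and 25.05 CPM, and its untreated knockout libraries stood at 49.1, 42.1 and 38.6 CPM. The fall was 2.799-fold (log2 -1.49 ± 0.29, SE; adjusted p = 0.0375). Among 12 tested genes of endothelin and other vasoactive signalling none rose and 1 fell (0.151% and 0.0144% of all genes), with a median of -0.41. The paralogue Ednrb, at 5.09, 4.16 and 0.761 against 11.6, 3.99 and 0 CPM, overlapped between the groups. Crabp1, Cryab and Ednra were called in 4, 5 and 3 of 9 refits without 1 library each, with adjusted p up to 0.235, 0.218 and 0.282. Control replicates 1 and 2 and GSK343 replicate 1 each ended all 3 calls when left out. GSK343 replicate 2 ended those of Crabp1 and Ednra, GSK343 replicate 3 those of Crabp1 and Cryab, and control replicate 3 and untreated knockout replicate 2 that of Ednra. Cryab was also not called without the 2 shallowest libraries.

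Several genes just outside the threshold were chosen after their values were seen. Fabp5, a fatty acid carrier, stood at 105, 91.7 and 128 against 279, 312 and 324 CPM (adjusted p = 0.0599), with 291, 187 and 85.6 CPM in the untreated knockout libraries, which spanned both groups. C1qtnf6, a secreted C1q-like protein, stood at 44.7, 53.8 and 66.96 against 21.4, 21.2 and 25.05 CPM (adjusted p = 0.0796). Odc1, the first enzyme of polyamine synthesis, stood at 113, 105 and 102 against 174, 232 and 242 CPM (adjusted p = 0.0796), with the untreated knockout libraries between at 151, 158 and 148 CPM. Dio2, which activates thyroid hormone, and Icam1, an adhesion molecule induced by inflammatory signals, had log2 differences of 1.53 ± 0.34 and 1.59 ± 0.35 (SE; adjusted p = 0.0992 for both).

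Among uncalled protein-coding genes with an unadjusted p under 0.01, 10 CPM or more in the higher group and no overlap between the groups, those with the largest changes were named. On the higher side stood Tnfsf15, a TNF family cytokine, at 1.04, 0.476 and 0.38 against 7.77, 4.34 and 27.8 CPM, where GSK343 replicate 3, the shallow library, was highest. Esm1, an endothelial secreted proteoglycan, stood at 6.71, 2.74 and 3.71 against 31.6, 32.3 and 8.35 CPM (adjusted p = 0.108). Adm, the vasodilator adrenomedullin, Aldoc, a glycolytic aldolase, Rgs5, a regulator of G protein signalling in pericytes, Trim7 and 1700007K13Rik had log2 differences of 2.65 ± 0.88, 2.505 ± 0.75, 1.97 ± 0.63, 1.93 ± 0.58 and 1.99 ± 0.62 (SE). On the lower side stood Fap, the fibroblast activation protease, at 17.5, 8.56 and 9.702 CPM in the controls, 7.96, 11.6 and 18.5 CPM in the untreated knockout libraries and 2.51, 1.65 and 0 CPM with GSK343 (adjusted p = 0.137). Vstm2b, a membrane protein, stood at 13.2, 15.1 and 15.03 against 2.98, 4.25 and 1.39 CPM, with 14.8, 17.6 and 16.8 CPM in the untreated knockout libraries (adjusted p = 0.107). Both overlapped the controls or lay above them in the untreated knockout and were low in all 3 GSK343 libraries. In replicate 3, the shallow one, a count of 3 equals 4.16 CPM, which is below the control values of both genes. The carboxylesterases Ces1f and Ces1g, a cluster of similar genes, had log2 differences of -2.39 ± 0.70 and -2.12 ± 0.59 (SE), and Cyp1a1, the aryl hydrocarbon receptor target, -1.86 ± 0.60. Agk, a lipid kinase of mitochondria, and Eya4, a phosphatase of organ development, had -1.77 ± 0.54 and -1.73 ± 0.58 (SE). Prg4, lubricin, was already lower in the untreated knockout. It stood at 60.1, 212 and 64.1 CPM in the controls, 32.9, 34.8 and 19.3 CPM in the untreated knockout and 55.9, 16.2 and 22.3 CPM with GSK343. Control replicate 2 was far above the other controls, and GSK343 replicate 1 lay close to those. Over refits without 1 library the log2 change of Prg4 ranged from -2.62 to -0.93.

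Collagens stood lower without a call in edgeR. All 12 tested fibrillar and type VI collagen genes had negative log2 values, with a median of -0.56, and 6 had all GSK343 libraries below all controls (6.71% of all genes). At an unadjusted p under 0.05, 6 were lower and none higher (2.23% and 2.11% of all genes). DESeq2 and voom each called 2 lower. Col6a1 and Col6a2, neighbouring genes for chains of the microfibrillar collagen VI, stood at 385, 442 and 454 against 214, 182 and 248 CPM and 318, 362 and 365 against 150.3, 162 and 223 CPM (adjusted p = 0.132 and 0.115). Their knockout steps were -0.70 and -0.84, and their drug steps -0.30 and -0.14. Over the 12 collagen genes the median knockout and drug steps were -0.32 and -0.26. Without untreated knockout replicate 3 these medians were -0.48 and -0.09. Col1a1, the main fibrillar chain of bone and skin, stood at 5957, 7985 and 7637 against 3933, 3528 and 5558 CPM (adjusted p = 0.629), with 4696, 5779 and 7139 CPM in the untreated knockout. Postn, periostin of the mesenchymal matrix, had a log2 difference of -0.83 ± 0.26 (SE). The collagens and the mesenchymal marker list share members, and the fall of the summed markers given above moved with them; its part in these values was not tested. Mmp9, a gelatinase, stood at 1285, 1684 and 1277 CPM in the controls, 1617, 1298 and 1246 CPM in the untreated knockout and 432, 359 and 973 CPM with GSK343 (adjusted p = 0.132). Every GSK343 library was below every library without drug, but replicate 3 lay much closer to them. Over refits without 1 library the log2 change of Mmp9 ranged from -1.84 to -1.03. Of 13 metalloproteinases and inhibitors none was called by edgeR and 1 lower by DESeq2 and by voom. At an unadjusted p under 0.05, 3 were lower (2.23% of all genes). Mmp19 and Mmp11 had log2 differences of -0.69 ± 0.27 and -0.56 ± 0.25 (SE).

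Wnt signalling genes had a median of -0.22 over 23 tested, with 10 of 23 below all controls and 1 above (6.71% and 4.65% of all genes). None was called by edgeR or voom, 1 was called lower by DESeq2, and 7 were lower and 1 higher at an unadjusted p under 0.05 (2.23% and 2.11% of all genes). The secreted antagonist Dkk1 stood at 5.56, 8.09 and 6.18 against 1.02, 0.52 and 0 CPM, and Wif1, another, at 6.83, 5.11 and 7.99 against 1.44, 0.781 and 0 CPM. Both were low in all libraries of these groups. Nkd1, a feedback inhibitor of the pathway, stood at 15.1, 8.09 and 8.56 against 3.72, 3.99 and 0 CPM, and the ligand Wnt4 at 5.56, 3.21 and 6.75 against 0.233, 0.694 and 2.78 CPM. A count of 3 in GSK343 replicate 3 equals 4.16 CPM, below the control levels of Nkd1. At the levels of Dkk1, Wif1 and Wnt4 that library could show little by itself. Chaperones of the endoplasmic reticulum also stood slightly lower, with 16 of 19 negative and a median of -0.26. Of 19, 7 lay below all controls and 2 above (6.71% and 4.65% of all genes). None was called by any of the 3 tools, and 1 was lower at an unadjusted p under 0.05 (2.23% of all genes). Pdia6, a disulfide isomerase, stood at 264, 269.8 and 234 against 197, 175 and 178 CPM, and Hsp90b1, the chaperone GRP94, at 1606, 1322 and 1283 against 1042, 1194 and 856 CPM.

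Chemokines of fibroblasts stood higher, with 12 of 13 positive, a median of 0.56 and 6 of 13 above all controls (4.65% of all genes). None was called by edgeR or DESeq2 and 2 by voom, with 5 higher and none lower at an unadjusted p under 0.05 (2.11% and 2.23% of all genes). Cxcl1 and Cxcl5, which attract neutrophils, stood at 486, 461 and 734 against 1092, 1212 and 1154 CPM and 247, 213 and 297 against 471, 436 and 455 CPM (adjusted p = 0.507 and 0.441). In the untreated knockout, Cxcl1 was at 1261, 563 and 401 CPM, so replicate 1 was as high as the GSK343 libraries and replicate 3 below the controls. Cxcl12, the ligand of CXCR4, stood at 54.99, 36.9 and 37.2 against 69.04, 64.3 and 77.9 CPM. Immediate early genes had 17 of 21 positive and a median of 0.32. Of 21, 6 lay above all controls and 1 below (4.65% and 6.71% of all genes). None was called by edgeR or DESeq2 and 1 by voom, with 4 higher and none lower at an unadjusted p under 0.05 (2.11% and 2.23% of all genes). Fos, a subunit of AP-1, stood at 18.5, 17.5 and 9.797 CPM in the controls, 12.1, 9.01 and 4.199 CPM in the untreated knockout and 42.99, 42.5 and 20.9 CPM with GSK343, and Fosl1, another AP-1 subunit, at 44.2, 86.8 and 86.9 against 128, 127 and 127 CPM. The knockout and drug steps of Fos were opposite in sign, -0.74 and 2.01. Of 9 tested genes of metallothionein and zinc transport none was called by edgeR, 1 was called higher by DESeq2 and 2 by voom. At an unadjusted p under 0.05, 3 were higher and none lower (2.11% and 2.23% of all genes). Mt1, which binds zinc, stood at 177, 161 and 331 CPM in the controls, 822, 192 and 123 CPM in the untreated knockout and 563, 565 and 772 CPM with GSK343 (adjusted p = 0.545). Mt2 stood at 49.5, 59.2 and 113, then 224, 63.5 and 77.3 and with GSK343 at 179.9, 255 and 257 CPM (adjusted p = 0.137). Untreated knockout replicate 1 was high for both. The zinc exporter Slc30a1 stood at 13.3, 19.03 and 12.4 against 29.6, 29.1 and 25.05 CPM.

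**Figure D4:**
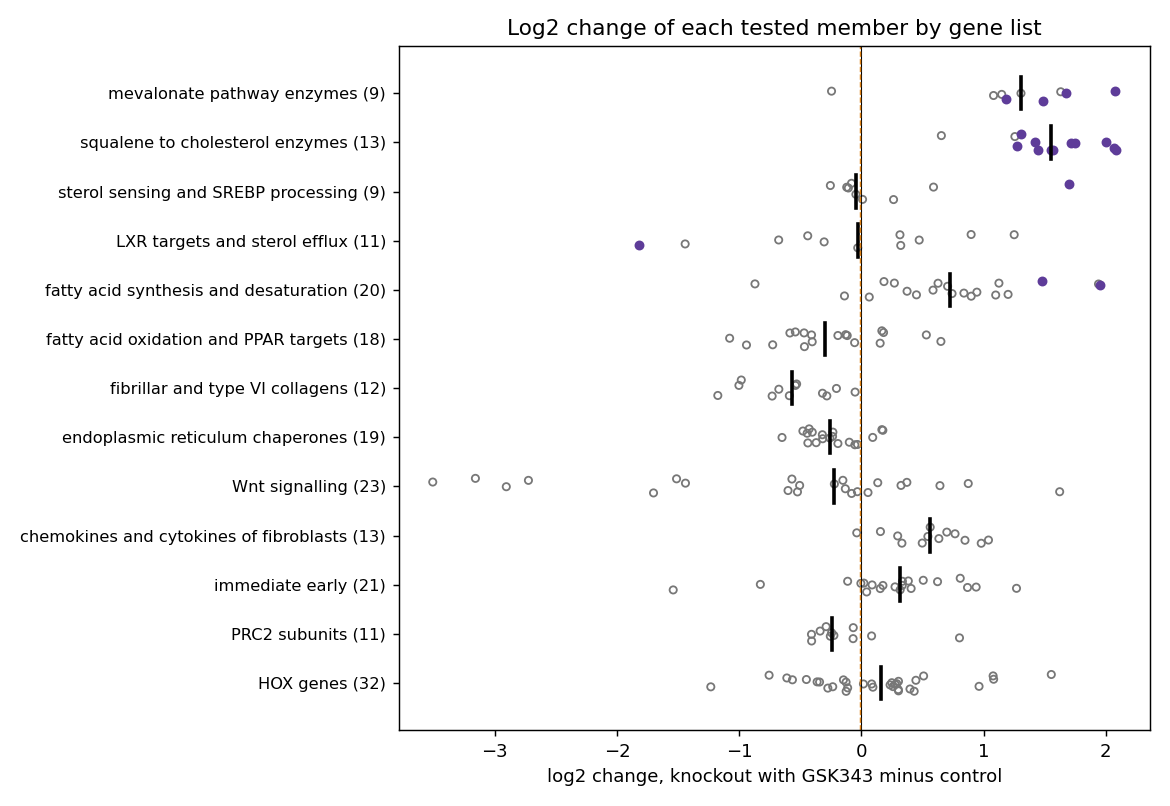
Log2 change from control to knockout with GSK343 for each tested member of 13 gene lists, with the number tested in brackets. Filled points passed the test, open points did not, black bars are list medians and the dashed line is the median of all genes (-0.01). The 2 enzyme lists of cholesterol synthesis have medians of 1.31 and 1.55, and the PRC2 and HOX lists of -0.24 and 0.16.

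Genes under Polycomb control were read because EZH2 is the drug's target. Of 57 listed developmental regulators known as PRC2 targets, 35 had enough counts to be tested. None was called by edgeR, DESeq2 or voom, and the median log2 change was 0.15. At an unadjusted p under 0.05, 2 were higher and 1 lower (2.11% and 2.23% of all genes). Of 35, 3 had all GSK343 libraries above all controls and 3 below (background 4.65% and 6.71%). Tbx5, a T-box factor of heart and forelimb, stood at 5.09, 6.18 and 10.6 against 15.5, 15.6 and 13.9 CPM, and Dlx2, a homeobox factor of branchial arch and forebrain, at 10.7, 19.4 and 11.8 against 26.2, 20.1 and 20.9 CPM. Nkx2-1, Sox17, Neurog2, Hand1, Olig2, Neurog1 and Sox1 had no count in any of the 6 libraries. Of 39 HOX genes 32 were tested, and none was called by any of the 3 tools. At an unadjusted p under 0.05, none was higher and 1 lower (2.11% and 2.23% of all genes), and the median was 0.16. Their summed level was 424.9 to 548.4 CPM in the controls and 465.4 to 502.9 CPM with GSK343. Hoxb4 stood at 8.104, 9.395 and 17.6 against 6.79, 4.596 and 1.39 CPM and Hoxd11 at 2.89, 2.02 and 1.81 against 4.65, 9.28 and 5.57 CPM, in opposite directions and both not called. Cell cycle inhibitors often silenced by Polycomb were detected in the controls. Cdkn2a, which encodes p16 and p19ARF and was chosen after its values were seen, stood at 152, 171 and 225 CPM in the controls and 167, 160.4 and 161 CPM with GSK343, and Cdkn2b at 182, 185 and 201 against 211, 207 and 210.1 CPM. None of the 6 tested inhibitors was called by any of the 3 tools or passed an unadjusted p under 0.05.

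The writers and erasers of the marks concerned did not pass either. The 11 tested PRC2 subunits had a median of -0.24, with 9 negative, no call in any of the 3 tools and none at an unadjusted p under 0.05. Rbbp4 and Rbbp7, histone-binding subunits shared with other complexes, stood at 186, 152 and 168 against 137, 152 and 107 CPM and 142, 152 and 134 against 99.7, 133 and 131 CPM, and Suz12, a core subunit, at 72.8, 43.1 and 34.6 against 40.01, 41.5 and 29.2 CPM. The H3K27 demethylases Kdm6a and Kdm6b had log2 differences of -0.47 ± 0.45 and 0.03 ± 0.31 (SE). The 9 genes of the m6A writer complex had a median of 0.15, with no call in any of the 3 tools and none at an unadjusted p under 0.05; Mettl16, a separate m6A enzyme listed with them, stood at 22.9, 26.9 and 30.3 against 46.8, 34.95 and 36.2 CPM. Of 19 tested imprinted genes none was called by any of the 3 tools. At an unadjusted p under 0.05, 1 was higher and 1 lower (2.11% and 2.23% of all genes). H19, a maternally expressed non-coding RNA, stood at 36.8, 13.2 and 40.05 CPM in the controls, 23.1, 9.01 and 79.8 CPM in the untreated knockout and 2.88, 8.59 and 0 CPM with GSK343. Its controls varied, GSK343 replicate 3 had no count, and the adjusted p was 0.262.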

How the data were processed

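RNA was read from day 7 embryoid bodies with a stranded library kit after poly(A) selection, per the labels' protocols. The deposited values are raw counts of reads per gene. Per the submitters' processing notes the authors used CASAVA, Trimmomatic 0.38, HISAT2 2.1.0, HTSeq and the build mm10; the sources used here do not give the annotation release or the strand setting, so overlapping and antisense genes may share reads. Of 54446 gene identifiers, 54409 matched GENCODE M21 names and positions.

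Total counts were 721853 to 20714764 over the 9 libraries of the Mettl14 line, grouped by their labels. Genes passing filterByExpr (13882) were fitted with edgeR 4.0.16 (glmQLFit and glmQLFTest after TMM scaling) in R 4.3.3, with all 3 groups sharing 1 estimate of spread, and Benjamini-Hochberg adjusted p-values under 0.05 were called. Alternatives were DESeq2 1.42.0, RLE size factors, no filter on low counts, a replicate term, only the groups compared, all 18 libraries, voom with quality weights (limma 3.58.1), thinning to the lowest total, a test against a log2 change of 0.5, and leaving out each library. The fit without the 2 shallowest libraries and the step medians without untreated knockout replicate 3 were added after the data were seen. The code was tested on simulated data.

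The comparison, the gene lists and the motifs were chosen with earlier results of these data known. Genes named were taken from those called, up to 8 uncalled genes a direction with unadjusted p under 0.01, 10 CPM or more and groups without overlap, the 4 members with the smallest p of a described list, and the genes of methylation and sterol lists; others are marked as chosen after their values were seen. Lists were described by counts and medians, with no set test. Some called genes are included in the counts and not reported here by name.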

Additional observations from a re-analysis of the deposited data

How the results depend on the processing

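The number of calls moved with the fit far more than the sizes of change did. Against 21 genes higher and 2 lower, DESeq2 gave 45 and 24, no filter on low counts 44 and 19, only the groups compared 32 and 3, voom 51 and 14, and the fit without the 2 shallowest libraries, chosen after seeing the data, 30 and 7. All 18 libraries together gave 2 and 0, thinning 16 and 0, and the test against a log2 change of 0.5 gave 5 and 0. At an unadjusted p under 0.05 these last 3 still had 349, 171 and 186 genes lower. RLE size factors gave 23 and 2. Leaving out 1 library at a time gave 4 to 37 higher and 0 to 8 lower. Deviations from the group means correlated at 0.053, -0.029 and 0.102 between same-numbered control and GSK343 libraries. Between differently numbered libraries they correlated at -0.099 to 0.094. With 3 libraries a group, these values cannot show whether the numbers pair the libraries. A replicate block gave 17 higher and 1 lower. The median of the 22 enzymes stayed between 1.42 and 1.58 throughout.

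Of 1297 values of named genes under settings other than leaving out 1 library, 1148 kept their side of the threshold, 98 moved past it, 46 fell short of it and 5 changed sign. Of 1188 values on leaving out 1 library, 1061 kept their side, 33 moved past it, 77 fell short and 17 changed sign. Only genes called in the main fit could fall short, and most named genes were not called. The values that kept their side are thus mostly genes that stayed uncalled. Thinning left no tested gene in the list of mitosis, so that list has no value there. It turned Ggps1 to 0.0945 and Scap to 0.19, voom turned Kdm6b to -0.10, and the fit without the 2 shallowest libraries gave Kdm6b -0.0396 and Ezh1 0.047. Over refits without 1 library, values spanned 0 for Ggps1 (-0.51 to 0.055), Scap (-0.22 to 0.12), Kdm6b (-0.088 to 0.15), Ezh1 (-0.63 to 0.19), Srebf1 (-0.27 to 0.15), Insig2 (-0.38 to 0.20), Mettl3 (-0.28 to 0.32), Cdkn2a (-0.29 to 0.0095), Ednrb (-0.34 to 1.24) and Lyz2 (-0.63 to 2.502). The cause of these moves was not tested. Depth limits GSK343 replicate 3, where 3 counts equal 4.16 CPM, so genes under about that level rest on the other 2 GSK343 libraries.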

Other observations

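Other gene groups of these libraries showed no call in edgeR, and the genes given here were chosen after their values were seen. The complement list had 2 higher and 2 lower of 10 tested genes at an unadjusted p under 0.05 (2.11% and 2.23% of all genes). DESeq2 and voom each called 1 lower. C3, the central complement protein, stood at 261, 355 and 216 CPM in the controls and 158, 193 and 154 CPM with GSK343, while C1s1, a protease of the first component, stood at 62.98, 64.9 and 61.5 against 93.5, 79.4 and 136 CPM, so members lay on both sides. Among small leucine-rich proteoglycans, which organise collagen fibrils, 6 of 7 tested were positive, with no call in any of the 3 tools. At an unadjusted p under 0.05, 2 were higher (2.11% of all genes). Lum, lumican, stood at 54.1, 26.9 and 38.5 against 73.7, 88.5 and 52.9 CPM and Podn, podocan, at 3.59, 4.88 and 6.37 against 14.8, 16.6 and 9.74 CPM. Perp, a p53 target in cell junctions, stood at 26.7, 16.2 and 33.8 against 42.7, 62.3 and 131 CPM, with the shallow GSK343 replicate 3 highest, and was the p53 target that DESeq2 and voom called. Of 30 cytosolic ribosomal protein genes 29 had positive values with a median of 0.19, and none passed an unadjusted p under 0.05 or was called by any of the 3 tools. Their median was 0.39 in the knockout step and -0.20 in the drug step, and 0.62 and -0.43 without untreated knockout replicate 3. Their summed level was 13590 to 20500 CPM in the controls and 14890 to 22590 CPM with GSK343. The untreated knockout libraries, which enter both steps, spanned both groups at 12000 to 30820 CPM.

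Summed markers of blood cells and macrophages were 122.5 to 156.5 CPM in the controls and 107.8 to 320.3 CPM with GSK343. Most of the spread came from Lyz2, lysozyme of myeloid cells, at 5.904, 25.8 and 19.3 CPM in the controls and 13.9, 175 and 5.57 CPM with GSK343, where replicate 2 stood far above the rest. Cd68, of macrophages, stood at 1.505, 4.04 and 2.47 against 4.14, 14.3 and 5.57 CPM, again highest in GSK343 replicate 2, and Gata1, Hba-a1 and Hbb-bt had no count in these 6 libraries.

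Fewer genes were detected in the deeper GSK343 libraries than in the controls. GSK343 replicate 1, with 20714764 counts, had 16658 genes with a count, against 17786 to 19206 in the controls, whose totals were lower. Thinned to 721853 counts, the GSK343 libraries had 13624, 13924 and 12178 genes with a count and the controls 13998, 13976 and 14159. The untreated knockout libraries, thinned alike, had 14081, 13786 and 13489 and overlapped both groups. There were 11 genes with 10 counts or more in each control and none in any GSK343 library. P2ry1, a purine receptor, had 33, 11 and 20 counts in the controls and 37, 45 and 6 in the untreated knockout libraries. Spon2, a secreted matrix protein, had 13, 14 and 31 counts in the controls. Tescl and 5330437M03Rik also had none in the untreated knockout libraries. In the other direction, 13 genes had no count in the controls and 10 or more in GSK343 replicates 1 and 2, and all 13 had none in replicate 3. Nkx2-2, a homeobox factor of ventral neural tube, had 15 and 18 counts there and 1 count in untreated knockout replicate 1. Crb2, a cell polarity protein, had 16 and 18 counts. These low counts were not tested.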
